A study of Rattus norvegicus with 8 samples.

Results

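The VPS10 receptors are the small family of sortilin-type sorting receptors, and the genes examined here are Sort1 (sortilin), Sorl1 (SorLA), Sorcs1, Sorcs2 and Sorcs3. The members were taken from the count table by gene symbol. Of the 5 genes, 4 had a row in the table of 28909 symbols and all 4 were among the 14309 genes tested, while Sorl1 was not analysed here. Sort1 was selected on its log2 fold changes with picrotoxin, which had opposite signs in somata and processes, so its picrotoxin values are given as a description without a test. The other members were included for their family membership and were tested.

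The cells were primary hippocampal neurons of Sprague-Dawley rat embryos, grown on filter inserts that leave the somata on the upper side and let axons and dendrites grow through to the lower side. The cultures received picrotoxin (PTX, a GABA-A receptor antagonist that raises network activity) for 48 h, from day in vitro 18 to 20, or vehicle (mock). Total RNA of the somatic and of the process compartment was depleted of ribosomal RNA and sequenced, with 2 libraries in each of the 4 conditions (vehicle somata, PTX somata, vehicle processes, PTX processes). No genetic change was made in any condition. The labels do not say whether the libraries of a condition came from separate cultures, so p-values measure the spread between these samples, which may be technical. The lower side of an insert holds the processes of whichever cells send them through the pores, and in bulk RNA fewer cells of a type and less RNA per cell cannot be told apart.

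VPS10 receptors are transmembrane proteins that bind ligands through a luminal VPS10 domain and carry them between the Golgi apparatus, endosomes and the cell surface. Sortilin binds neurotensin, progranulin and, together with the p75 neurotrophin receptor, the unprocessed forms of neurotrophins such as proBDNF, and it takes part in the sorting of BDNF towards the regulated secretory pathway. SorCS1, SorCS2 and SorCS3 form the SorCS branch of the family, with members at neuronal surfaces and synapses. SorCS1 sorts synaptic adhesion molecules and receptors, SorCS2 is a co-receptor for proneurotrophins with p75, and SorCS3 is found at postsynaptic sites, where it is linked to glutamate receptor trafficking. Their cytoplasmic tails are handled by GGA proteins, AP-1 and AP-2 adaptors and the retromer.

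Library totals ranged from 12290890 to 18455662 counts. Mitochondrial genes took 22.6 to 26.7% of the counts in somata and 68.5 to 72.5% in processes, which left 9517542 to 11227599 counts for other genes in somata and 4702054 to 5491237 in processes. The members held between 350 and 4910 reads per somata library and between 69 and 2658 per processes library, so their levels were less precise in processes. Levels below are CPM (reads of a gene relative to the scaled library total) after TMM, a scaling between libraries that is based on the bulk of the genes. CPM is not corrected for transcript length, so levels are compared between conditions and never between genes. All 7 pan-neuronal markers were detected in both compartments. The 10 astrocyte markers summed to 3250 to 4560 CPM in somata and 11500 to 15000 CPM in processes. Much of this sum was Gfap, with means of 1680 CPM in vehicle somata and 10200 CPM in vehicle processes. Of the 10 markers, 6 were called higher and 2 lower in processes on TMM scaling and the mean of vehicle and PTX cultures. In that comparison 62.8% of all genes were called. The 7 microglia markers in the table summed to at most 2.16 CPM in any library.

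Sort1 was the member with the opposite movement in the 2 compartments. In somata, its level was 177 and 163 CPM in the vehicle libraries and 140 and 132 CPM in the PTX libraries. In processes, it was 152 and 143 CPM in the vehicle libraries and 295 and 267 CPM in the PTX libraries. Both PTX somata libraries thus lay below both vehicle somata libraries, and both PTX processes libraries lay above all 6 other libraries. The log2 fold change with PTX was -0.32 (SE 0.11) in somata and 0.93 (SE 0.112) in processes, a ratio of mean levels of 0.799 and 1.91. The difference between these log2 fold changes was 1.25 (SE 0.157). These are the values for which Sort1 was selected.

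**Figure D1:**
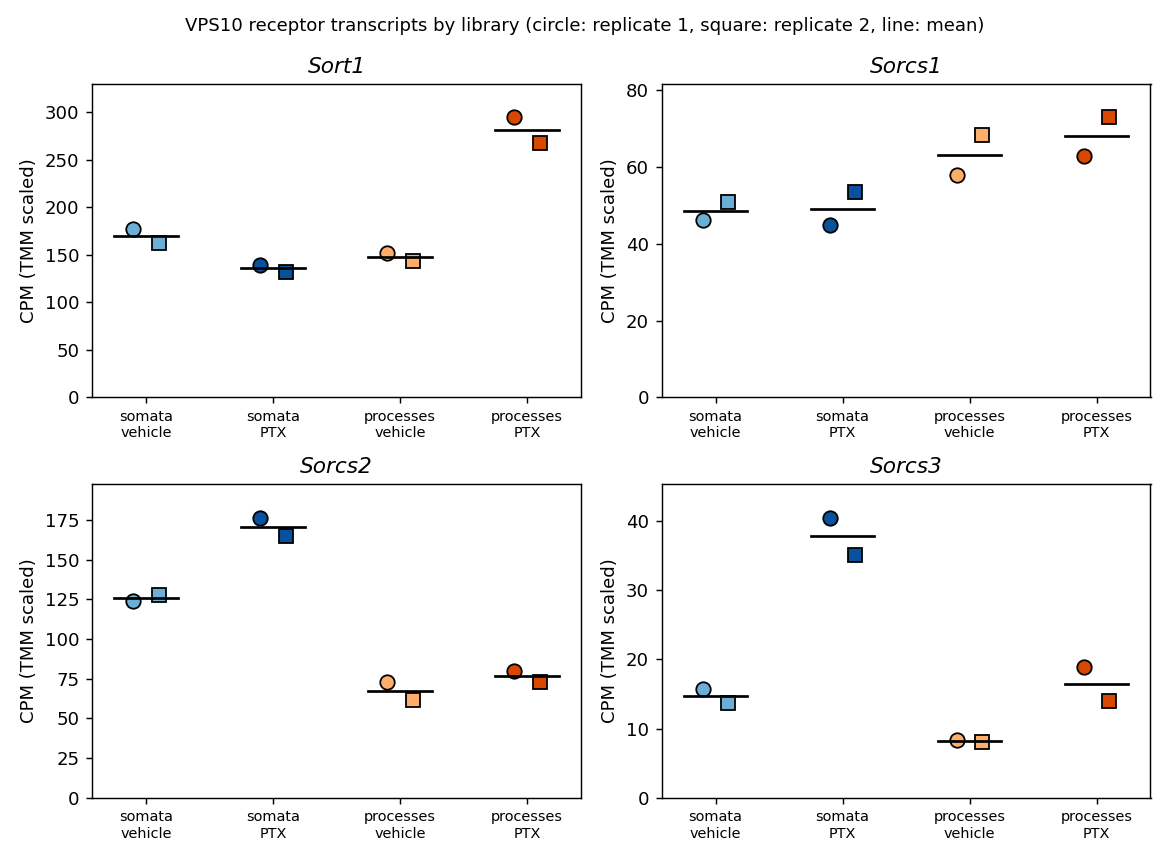
Level of each VPS10 receptor transcript in CPM after TMM scaling (y axis, from 0) in the 4 conditions (x axis), with a circle for replicate 1, a square for replicate 2 and a line for the mean of the 2 libraries. Sort1 was highest in PTX processes (267 and 295 CPM), Sorcs2 and Sorcs3 were highest in PTX somata, and Sorcs1 was higher in processes than in somata on this scaling, with no visible separation between vehicle and PTX.

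The compartment difference of Sort1 was not the same in vehicle and PTX cultures. The mean level in processes was 0.867 times that in somata in vehicle cultures and 2.07 times that in somata in PTX cultures. The vehicle difference had an interval that included 0 (log2 fold change -0.21, 95% interval -0.45 to 0.039). With scaling by library size alone Sort1 was lower in processes under both treatments, at log2 fold changes of -2.02 with vehicle and -0.78 with PTX. In the order of the conditions, PTX processes stood first at 281.0 ± 19.4 CPM (SD, n = 2), followed by vehicle somata at 170.0 ± 10.6 CPM, vehicle processes at 147 ± 6.09 CPM and PTX somata at 136 ± 5.12 CPM (SD, n = 2 each). No neighbouring conditions in this order overlapped, but the gap between the lowest vehicle processes library (143 CPM) and the highest PTX somata library (140 CPM) was small. On the mean of the compartment difference over vehicle and PTX cultures, Sort1 was 1.34-fold higher in processes (log2 fold change 0.42, 95% interval 0.25 to 0.59, edgeR quasi-likelihood test, adjusted p = 0.000784), an average over -0.21 in vehicle cultures and 1.05 in PTX cultures. The positive mean thus came from the PTX libraries, on which Sort1 was selected, and is no independent evidence of a preference for processes. Of all genes tested, 62.8% were called in this comparison.

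Few genes shared the pattern of Sort1. Of the 235 genes called higher with PTX in processes, 5 had a negative log2 fold change in somata, Sort1 itself among them. Sort1 is in both counts through the values on which it was selected, so they are a description. Slc17a7, the vesicular glutamate transporter VGLUT1, had -0.33 in somata and 0.73 in processes. Slc36a1, a proton-coupled amino acid transporter of lysosomes, had -0.31 and 1.11. AABR07054639.1, a symbol given without a description, had -0.17 and 0.72, and Phtf1 had -0.025 and 0.61. By the size of the difference between the 2 PTX effects, on which it was selected, Sort1 ranked 63 of 14309 genes, and among genes averaging 5 CPM or more 3 had a log2 difference of at least this size, namely Sort1, Slc36a1 and AABR07028352.1 (the last named after its value was seen).

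**Figure D2:**
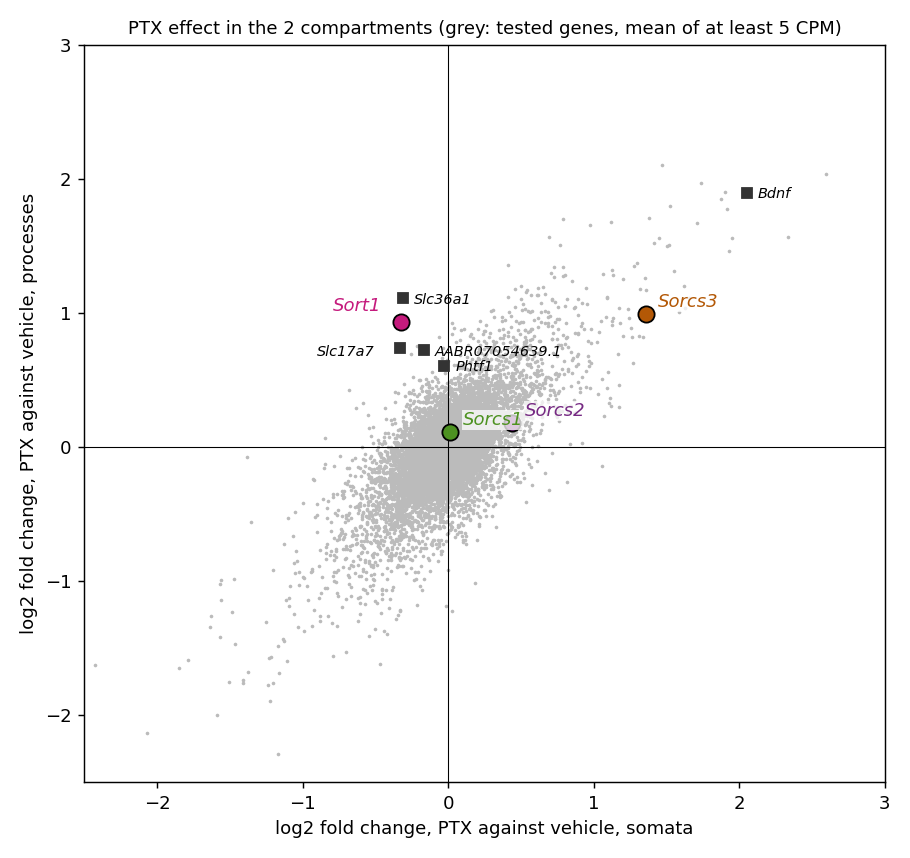
Log2 fold change of PTX against vehicle in somata (x axis) and in processes (y axis) for the 10209 tested genes that averaged 5 CPM or more (grey points, 5 of them outside the axes), with the VPS10 receptors as coloured circles and named genes as squares. Sort1 sits in the upper left (-0.32 and 0.93) beside Slc36a1, Slc17a7, AABR07054639.1 and Phtf1, while Sorcs3 lies with Bdnf in the upper right (1.36 and 0.99).

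Sorcs3 rose with PTX in both compartments. In somata, it stood at 15.8 and 13.7 CPM in the vehicle libraries and at 40.5 and 35.1 CPM in the PTX libraries. In processes, it stood at 8.36 and 8.10 CPM in the vehicle libraries and at 18.8 and 14.0 CPM in the PTX libraries. The PTX libraries were above the vehicle libraries in each compartment without overlap. The rise was 2.56-fold in somata (95% interval 2.04 to 3.22, log2 fold change 1.36, SE 0.148, edgeR quasi-likelihood test, adjusted p = 0.000893), where 3.59% of all genes were called. In processes it was 1.98-fold (95% interval 1.49 to 2.64, log2 fold change 0.99, SE 0.187, adjusted p = 0.0183), where 3.74% of all genes were called. Sorcs3 was thus the only tested member called in either PTX comparison in this fit, and 78 of the 299 genes called higher in somata had a larger fold change. The rise in processes rested on 69 and 75 reads in the vehicle libraries and 139 and 164 in the PTX libraries. Its call was lost without vehicle processes replicate 1 (adjusted p = 0.125), vehicle processes replicate 2 (0.0785) or PTX processes replicate 1 (0.109), with log2 fold changes of 1.01, 0.97 and 0.76. In somata it stood without any library in turn, at adjusted p between 0.000901 and 0.0179.

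Sorcs3 was lower in processes than in somata under both treatments. The log2 difference was -0.84 (SE 0.177, adjusted p = 0.00293) in vehicle cultures and -1.21 (SE 0.157, adjusted p = 0.000113) in PTX cultures. Its mean in PTX processes, 16.4 ± 3.43 CPM (SD, n = 2), was close to that in vehicle somata, 14.7 ± 1.46 CPM (SD, n = 2), and these libraries overlapped. The other neighbouring conditions in its order did not.

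Sorcs2 was lower in processes than in somata under both treatments. Its level was 124 and 128 CPM in vehicle somata and 177 and 165 CPM in PTX somata. In processes, it was 73.0 and 61.9 CPM with vehicle and 80.0 and 72.9 CPM with PTX. All 4 processes libraries lay below all 4 somata libraries. Processes were lower by a log2 difference of -0.90 (SE 0.117, adjusted p = 0.000122) in vehicle cultures and -1.16 (SE 0.116, adjusted p = 1.83e-05) in PTX cultures, by edgeR's quasi-likelihood test.

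In somata, the PTX libraries of Sorcs2 were above the vehicle libraries without overlap, a ratio of 1.36 (95% interval 1.14 to 1.61). This difference did not pass the test over all genes (log2 fold change 0.44, SE 0.113, adjusted p = 0.0601). With the replicate number as a block it passed (adjusted p = 0.00117), in a fit that called 14% of all genes in somata and 11.2% in processes. It also passed with DESeq2 (adjusted p = 0.0303). Without a library of the comparison itself the adjusted p was 0.291 (vehicle somata replicate 1), 0.284 (vehicle somata replicate 2), 0.364 (PTX somata replicate 1) and 0.169 (PTX somata replicate 2). It passed without a vehicle processes library, which enters only through the common spread (adjusted p = 0.0443 without replicate 1 and 0.0433 without replicate 2). In processes the libraries overlapped, and the ratio was 1.13 (95% interval 0.944 to 1.36, adjusted p = 0.509). A gene that RefSeq places inside the Sorcs2 interval, Psapl1, held 0 to 19 reads per library in this table, and reads of overlapping genes may be of uncertain origin.

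Sorcs1 showed the flattest profile. It stood at 46.2 and 50.9 CPM in vehicle somata and at 44.9 and 53.3 CPM in PTX somata. In processes it stood at 57.8 and 68.2 CPM with vehicle and at 62.9 and 72.9 CPM with PTX. Vehicle and PTX libraries overlapped in both compartments, whereas all processes libraries were above all somata libraries. With PTX, its ratio was 1.01 in somata (95% interval 0.827 to 1.24, adjusted p = 0.979) and 1.08 in processes (95% interval 0.876 to 1.33, adjusted p = 0.754). Processes were higher by a log2 difference of 0.37 (SE 0.134, adjusted p = 0.0403) in vehicle cultures and 0.47 (SE 0.134, adjusted p = 0.0137) in PTX cultures. The call in vehicle cultures was lost without vehicle somata replicate 1 (adjusted p = 0.193) or 2 (0.0707) or vehicle processes replicate 2 (0.234). That in PTX cultures was lost without PTX somata replicate 1 (adjusted p = 0.116) or PTX processes replicate 2 (0.106). Upper quartile scaling ended both calls (adjusted p = 0.302 with vehicle and 0.0905 with PTX), a minimum of 10 reads in every library ended that in vehicle cultures (0.0734), and scaling by library size alone turned both differences, to -1.43 and -1.35.

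On the mean of vehicle and PTX cultures, Sorcs1 was called higher in processes and Sorcs2 and Sorcs3 lower, where 62.8% of all genes were called. Sort1 is not counted here, since its positive mean came from the PTX libraries on which it was selected. In vehicle cultures its value was -0.21. Sorcs1 was 1.34-fold higher in processes (log2 fold change 0.42, SE 0.0947, adjusted p = 0.00265), a call that upper quartile scaling ended (adjusted p = 0.0512, edgeR quasi-likelihood test for both). Sorcs2 was at 0.49 times its somata level (log2 fold change -1.03, SE 0.0824, adjusted p = 1.57e-06), and Sorcs3 also at 0.492 times (log2 fold change -1.02, SE 0.118, adjusted p = 2.54e-05). The 3 tested members were all called in vehicle cultures, where 47.7% of all genes were called, and in PTX cultures, where 49.8% were called. These directions are relative to the bulk of genes. Scaling by library size alone moved the median of all genes from -0.06 to -1.88, and Sort1 and Sorcs1 then turned to -1.40 and -1.39. Relative to that median they remained above it, by 0.48 and 0.49, with Sorcs2 and Sorcs3 below it by a difference of -0.97 each.

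**Figure D3:**
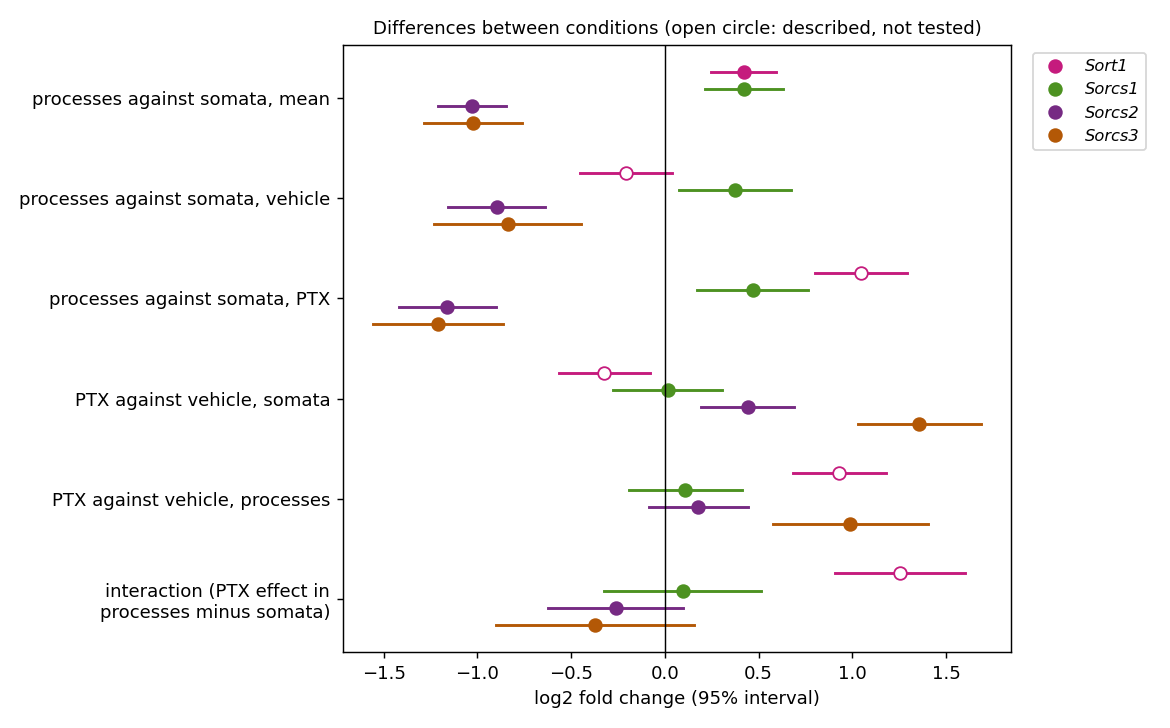
Log2 fold change of each VPS10 receptor (x axis, point with its 95% interval) in the 6 comparisons (y axis), with filled circles for tested values and open circles for Sort1 where it was described only. On TMM scaling, Sort1 and Sorcs1 lie above 0 and Sorcs2 and Sorcs3 below 0 in the mean compartment comparison (Sort1 and Sorcs1 turn with library size scaling, to -1.40 and -1.39), and Sort1 alone has PTX values on opposite sides of 0.

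For the members other than Sort1, the PTX effect was not shown to differ between compartments. The difference of the log2 fold changes, processes minus somata, was -0.37 (95% interval -0.90 to 0.16) for Sorcs3, -0.26 (95% interval -0.62 to 0.099) for Sorcs2 and 0.095 (95% interval -0.32 to 0.51) for Sorcs1, each with an adjusted p of 1 by edgeR's quasi-likelihood test. In this comparison 0% of all genes were called, with 572 at an unadjusted p under 0.05, whereas the likelihood ratio test and DESeq2 called 4 genes each. With the replicate block, 0.105% of all genes were called (15 genes), and the adjusted p was 0.881 for Sorcs1 and 0.602 for Sorcs2 and Sorcs3.

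Cell type markers moved with PTX beside these changes. The 6 excitatory neuron markers summed to 433 to 447 CPM in vehicle somata and 290 to 310 CPM in PTX somata, and to 738 to 984 and 526 CPM in processes. The 7 inhibitory neuron markers summed to 240 to 341 CPM in vehicle somata and 418 to 550 CPM in PTX somata, and to 135 to 174 and 219 to 287 CPM in processes. Of the 6 tested inhibitory markers, 2 rose in somata (Gad1 and Gad2, which make GABA) and 1 in processes (Gad2). Of all genes, 3.59% were called in somata and 3.74% in processes. Under the replicate block 5 and 2 of these markers were higher, in a fit that called 14% and 11.2% of all genes. The vesicular GABA transporter Slc32a1 had a log2 fold change of -0.025 in somata (quasi-likelihood test, adjusted p = 0.976) and 0.16 in processes (adjusted p = 0.779). Sums of 11 genes of dividing cells were 115 to 138 CPM in vehicle somata and 151 to 213 CPM in PTX somata, and 154 to 194 and 300 to 310 CPM in processes, where 3 of the 11 rose (Top2a, Cdk1 and Ccnb1). The 10 astrocyte markers summed to 13400 to 15000 CPM in vehicle processes and 11500 to 12800 CPM in PTX processes. Much of this sum was Gfap (means of 10200 and 8250 CPM). With PTX in processes, 0 of the 10 were called, and with the replicate block 1 was higher and 1 lower. The inhibitory and dividing-cell sums were higher with PTX in both compartments. The part of these cell types in the levels of the VPS10 receptors was not tested.

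The genes with profiles most like each member were found by Pearson's r of log2 CPM over the 8 libraries, among genes averaging 5 CPM or more. The libraries share conditions, so r is a description. Nearest to Sort1 were AABR07054639.1 (r = 0.955), Slc36a1 (r = 0.930) and Erbb4, a neuregulin receptor (r = 0.929). Slc36a1 rose from 20.3 to 43.8 CPM in processes and stood at 16.9 and 13.7 CPM in somata (means of vehicle and PTX). Erbb4 had the order of Slc36a1 on a smaller scale, with means of 29.3 and 36.8 CPM in processes and log2 fold changes of 0.33 there and -0.15 in somata. In both genes the vehicle mean was higher in processes than in somata (27.8 CPM in vehicle somata for Erbb4), unlike in Sort1. Nearest to Sorcs3 were Mvd, an enzyme of cholesterol synthesis (r = 0.995), Rgs7, a regulator of G protein signalling (r = 0.994), and Pam, which amidates secreted neuropeptides (r = 0.990). Pam had mean levels of 138 CPM in vehicle somata and 414 CPM in PTX somata, and of 87.1 and 176 CPM in processes.

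Nearest to Sorcs2 were LOC688655 (r = 0.995), Tmed4, a p24 protein of the early secretory pathway (r = 0.994), and Prpsap2 (r = 0.993). Nearest to Sorcs1 were Mdk, the growth factor midkine (r = 0.993), Alyref, an mRNA export adaptor (r = 0.990), and Rdx, the membrane-cytoskeleton linker radixin (r = 0.989). Among the members themselves, on TMM scaling, Sorcs2 and Sorcs3 had similar profiles (r = 0.844) and Sorcs1 and Sorcs2 opposite ones (r = -0.853). Sort1 was between -0.455 and 0.520 with the others. These r include the compartment difference, which depends on the scaling. With library size alone, Sorcs1 and Sorcs2 were both lower in processes on the mean (log2 fold changes -1.39 and -2.85). With each compartment centred on its own mean, which leaves the PTX changes and the replicate spread, 1 of the 3 nearest genes stayed for Sort1 (Erbb4) and for Sorcs3 (Mvd), and 0 for Sorcs1 and Sorcs2.

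**Figure D4:**
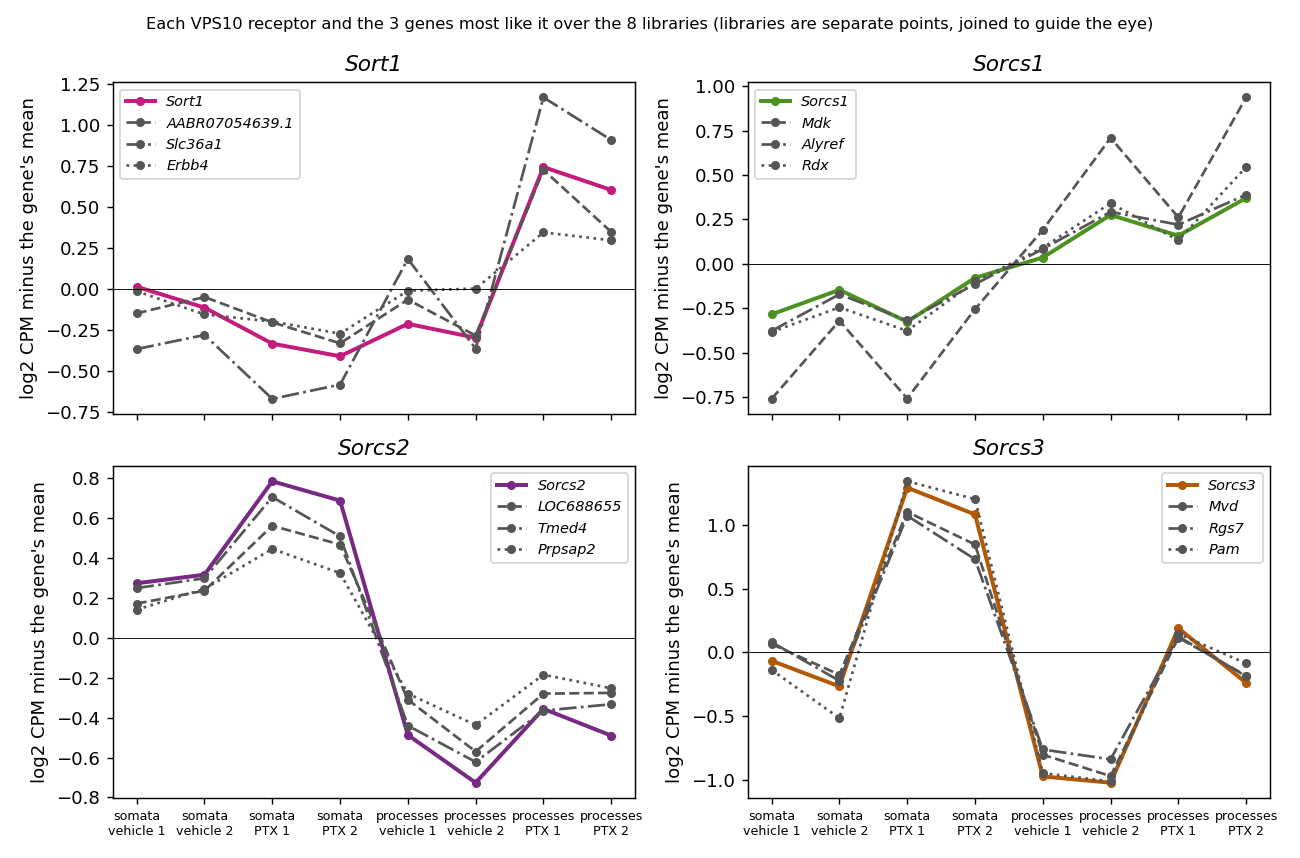
Log2 CPM of each VPS10 receptor (thick coloured line) and the 3 genes most like it (grey lines), each minus its own mean (y axis), in the 8 libraries (x axis). Slc36a1 follows Sort1 with a larger rise in PTX processes and Erbb4 with a smaller one, and Mvd, Rgs7 and Pam follow Sorcs3 closely in all 4 conditions.

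The promoters of the members with the largest PTX changes, Sort1 and Sorcs3, are shown because both transcripts were higher in PTX processes while their somata values differed in sign. They are the RefSeq sequences of the assembly GRCr8, which is later than the assembly used for counting, and promoters of all 5 genes were matched by symbol. Sort1 lies at chr2:198612245-198612544 and Sorcs3 at chr1:257040192-257040491, both on the plus strand. Each run has 300 bases around the annotated start, 5′ to 3′, and capitals mark CCAAT boxes (CCAAT) and GC boxes (GGGCGG).
Sort1: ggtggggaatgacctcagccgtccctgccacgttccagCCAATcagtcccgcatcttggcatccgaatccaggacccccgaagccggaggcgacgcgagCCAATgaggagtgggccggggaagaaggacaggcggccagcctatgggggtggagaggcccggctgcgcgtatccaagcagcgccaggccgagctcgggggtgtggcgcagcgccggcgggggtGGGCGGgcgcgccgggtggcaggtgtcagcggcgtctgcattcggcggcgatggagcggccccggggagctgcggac
Sorcs3: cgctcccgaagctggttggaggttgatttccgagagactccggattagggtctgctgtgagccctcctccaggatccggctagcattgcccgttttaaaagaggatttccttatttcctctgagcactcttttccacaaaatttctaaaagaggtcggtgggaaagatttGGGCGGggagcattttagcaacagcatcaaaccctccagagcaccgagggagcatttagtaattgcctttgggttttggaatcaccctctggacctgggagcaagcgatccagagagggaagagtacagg

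The Sort1 promoter was rich in G and C (72.3%), and that of Sorcs3 (51%) was near the median of all promoters (51.7%). Both strands were searched. The Sort1 window held 2 CCAAT boxes, beginning at -212 and -151 from the gene start, and 1 GC box at -27, and the Sorcs3 window held 1 GC box at -80. A CCAAT box was present in 37.5% and a GC box in 33.1% of 33469 promoters of the same length. Neither window held the cAMP response element TGACGTCA (1.83% of promoters), its core TGACG (21.2%), the AP-1 site TGANTCA (7.33%), the EGR site GCGNGGGCG (4.98%) or the TATA box TATAAA (14.2%). No match says only that these letters are not in the window. In the same assembly Sorcs1 and Sorcs3 are neighbours on chromosome 1 with 0 protein-coding genes between them. Their PTX log2 fold changes were 0.015 and 1.36 in somata and 0.11 and 0.99 in processes.

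Among ligands, Bdnf was the gene of the lists that moved most with PTX. It rose from 42.7 ± 13.3 to 177 ± 4.77 CPM in somata (SD, n = 2 each, log2 fold change 2.05, adjusted p = 0.000216) and from 12.7 ± 0.182 to 47.2 ± 3.52 CPM in processes (SD, n = 2 each, log2 fold change 1.89, adjusted p = 0.00219, edgeR quasi-likelihood test). Of the 6 tested proneurotrophins and receptors it was the only gene called with PTX in this fit. The replicate block called 2 higher and 1 lower in somata and 2 higher in processes. That block fit called 14% of all genes in somata and 11.2% in processes. Ngfr, the p75 receptor that partners sortilin and SorCS2, was detected at low levels (2.62 and 4.92 CPM in vehicle and PTX somata, 1.30 and 1.87 CPM in processes) and was not called (adjusted p = 0.186 in somata and 0.689 in processes), but in somata it was called with the replicate block (log2 fold change 0.91, adjusted p = 0.0117). Ntrk2, the receptor for mature BDNF, had 524 CPM in vehicle processes and 703 CPM in PTX processes (log2 fold change 0.43, adjusted p = 0.0714, with the replicate block 0.00375). Of 17 tested other ligands and cargo, Pdgfb (platelet-derived growth factor B) rose in somata (log2 fold change 1.13, adjusted p = 0.0111), and Lpl (lipoprotein lipase, -0.92, adjusted p = 0.00479) and the neurotensin receptor Ntsr1 (-1.71, adjusted p = 0.0149, named after its value was seen) fell there, and 0 were called in processes. Grn (progranulin) had log2 fold changes with PTX of 0.17 and -0.018 in somata and processes (adjusted p = 0.592 and 0.974), and Nts (neurotensin) was at 1.05 to 2.40 CPM in the 4 conditions.

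Of the 18 retromer and sorting nexin genes, 0 were called in either compartment by the quasi-likelihood test (with the replicate block, 0 in somata and 1 in processes). Vps35, the cargo-binding core of the retromer, had log2 fold changes of -0.016 in somata and 0.12 in processes (adjusted p = 0.978 and 0.728). Of the 13 tested tail adaptors, Hspa12a, a sortilin-family tail-binding protein, fell in somata (-0.57, adjusted p = 0.0341) and in processes (-0.68, adjusted p = 0.0288), and Ap1g2 fell in somata (-1.74, adjusted p = 0.00587, named after its value was seen). The sortilin tail adaptors Gga1, Gga2 and Gga3 were not called with PTX, with log2 fold changes of 0.040, 0.28 and -0.039 in somata and -0.16, 0.35 and -0.42 in processes. Cltc, the clathrin heavy chain, rose in somata (0.60, adjusted p = 0.0194), as did the proprotein convertase Pcsk5 (1.05, adjusted p = 0.0203). Of the 10 mannose 6-phosphate and lipoprotein receptor genes, 0 were called with PTX in either compartment, but with the replicate block 3 were higher and 2 lower in somata and 1 was higher in processes. Over all 7 lists, 8 of 84 tested genes were called in somata (4 higher, 4 lower, 9.52%, against 3.59% of all genes) and 2 in processes (1 higher, 1 lower, 2.38%, against 3.74%). With the replicate block these counts were 12 higher and 11 lower in somata and 7 higher and 2 lower in processes. The block fit called 14% of all genes in somata and 11.2% in processes.

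Between compartments, 21 of the 84 genes were higher and 36 lower in processes (67.9% called, against 62.8% of all genes), counts that became 0 and 83 with scaling by library size alone and 14 and 49 with upper quartile scaling. The retromer and sorting nexin list had 11 of 18 genes higher and 3 lower (median log2 difference 0.36, all genes -0.06), with Snx27 at 1.43 (adjusted p = 6.97e-07), Snx5 at 1.40 (6.77e-06) and Snx12 at 1.53 (0.0108). Vps35 was also higher in processes (0.33, adjusted p = 0.00938). With library size alone 0 of the 18 were higher and 17 lower, but 13 of 18 were above the median of all genes on either scaling. Of the tail adaptors, 2 of 13 were higher and 8 lower (median -0.39), with Pacs2 at 1.17 (adjusted p = 2.83e-07), Ap1m1 at -0.89 (5.08e-06) and Gga3 at -0.83 (7.52e-05). Pacs2 is among the genes whose sign depends on the scaling, since 0 of the 13 were higher with library size alone.

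Of the 6 proneurotrophins and receptors 0 were higher and 4 lower, including Bdnf (-1.83, adjusted p = 7.57e-07) and Ngfr (-1.18, adjusted p = 0.00502). Of the 17 other ligands and cargo 2 were higher and 9 lower, including Grn (-0.92, adjusted p = 7.88e-06), the lysosomal protease Ctsd (-1.02, adjusted p = 1.84e-06) and, on the higher side, the neurotensin receptor Ntsr2 (1.14, adjusted p = 2.71e-06). Of the 12 propeptide cleavage and shedding genes 0 were higher and 7 lower, including Psen2 (-1.18, adjusted p = 3.80e-05) and Pcsk5 (-1.06, adjusted p = 0.000268). Of the 10 mannose 6-phosphate and lipoprotein receptor genes 3 were higher and 5 lower, with Lrp4 at 0.84 (adjusted p = 8.30e-05) and M6pr at -0.82 (1.96e-05). Of the 8 AP-2 and clathrin genes 3 were higher and 0 lower, led by Ap2s1 (0.47, adjusted p = 0.000238). With library size alone, all 53 tested genes of these 5 lists were lower in processes.

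**Figure D5:**
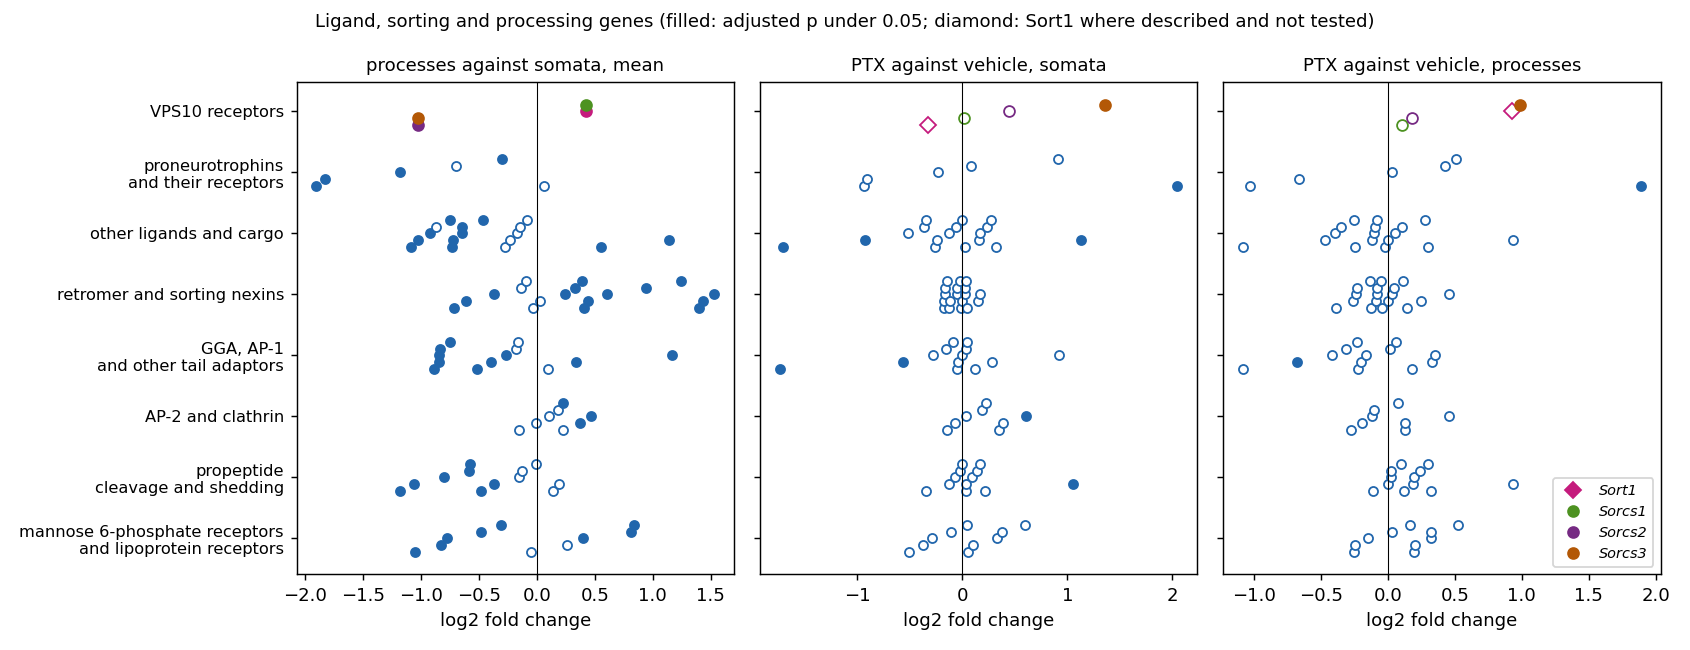
Log2 fold change (x axis) of each tested gene of 7 lists and of the VPS10 receptors (y axis, 1 row per list) for processes against somata, PTX in somata and PTX in processes, with filled points for an adjusted p under 0.05. On TMM scaling the retromer and sorting nexin row lies mostly to the right in the first panel (11 of 18 higher, which turn to 0 of 18 with library size scaling) and around 0 in the others, and Bdnf is the point farthest to the right in both PTX panels.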

How the data were processed

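Ribosome-depleted total RNA of rat hippocampal neuron compartments was prepared with a directional kit and sequenced by the authors, with 2 libraries per condition. The deposited counts are whole reads per gene symbol without normalization, which the authors made by trimming, alignment to Rnor_6.0 and featureCounts. Subread is named as aligner in the study's methods and STAR in the submitters' processing notes, and the strand setting of the counting is not given in the sources used here. Counts were summed by symbol, which merges gene copies of the same name. The deposited tables of the authors' own PTX comparisons (log2 fold changes, p-values) were not used.

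Genes above 20 reads in 2 or more libraries (14309 of 28909) were scaled by TMM and fitted in edgeR 4.0.16 (R 4.3.3) with 1 coefficient for each of the 4 conditions. Quasi-likelihood p-values received Benjamini-Hochberg adjustment over all genes tested, and 0.05 was used as threshold. Standard errors were derived from the log2 fold change and its F statistic. Log2 CPM used a prior count of 2. The main fit did not pair the libraries. A further fit took the replicate numbers of the labels as a block that pairs them. The reason was that the differences between replicate 2 and replicate 1 correlated across genes, at r = 0.27 to 0.54 in all 6 pairs of conditions. Of the lists, up to 3 genes per comparison with the largest change among called genes of at least 5 CPM were named, besides direct partners of the receptors (Bdnf, Ngfr, Ntrk2, Nts, Grn, Vps35, Gga1, Gga2, Gga3, Igf2r and M6pr) and the 3 genes most like each member. Slc17a7, Phtf1, Gfap, Gad1, Gad2, Slc32a1, Top2a, Cdk1 and Ccnb1 were named after their values were seen. The members and lists were chosen with earlier results of these data known. Alternatives tried were DESeq2 1.42.0, a likelihood ratio test, other scalings and filters, only the libraries compared, the replicate block and leaving out each library. The tests were checked on simulated counts. Sorl1 was not analysed here. Some single genes are left out of the text.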

Additional observations from a re-analysis of the deposited data

Results flagged for a closer look

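Sort1 stood out because every PTX library lay below the vehicle libraries in somata and above them in processes, with a difference between the 2 log2 fold changes of 1.25 (SE 0.157). Since Sort1 was selected for this pattern, the difference was not tested. It was between 1.18 and 1.33 when each library was left out in turn. This range describes the libraries on which Sort1 was selected and is no independent support for the pattern.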

How the results depend on the processing

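Of 400 values of members under alternatives, 364 kept their direction and their side of the threshold, or for Sort1 moved by less than the replicate spread. This count is no measure of robustness, because many of these alternatives could hardly change a value. Leaving out a library outside a comparison, or using the likelihood ratio test, left its log2 fold change nearly the same. Library size scaling called 13785 (mean), 13462 (vehicle) and 13499 (PTX) genes between compartments, against 8993, 6823 and 7121, because the median gene fell to -1.88. Under it Sort1 turned to -1.40 (mean) and -0.78 (PTX cultures), and Sorcs1 to -1.39, -1.43 and -1.35 (mean, vehicle, PTX cultures). Upper quartile scaling gave 3408 genes higher and 6221 lower in processes on the mean, against 4433 and 4560 (2750 and 4704 against 3688 and 3135 in vehicle cultures, 2904 and 4768 against 3680 and 3441 in PTX cultures). Under it the Sorcs1 adjusted p was 0.0512, 0.302 and 0.0905 on the mean, in vehicle and in PTX cultures, and its PTX value in somata turned to -0.0048. With at least 10 reads in every library, Sorcs1 in vehicle cultures had an adjusted p of 0.0734. The cause was not tested for these Sorcs1 values.

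For PTX in somata, 513 genes became 972 (likelihood ratio), 1141 (no filter) and 2002 (replicate block), and library size scaling gave 351 higher and 140 lower against 299 and 214. The members called there became 2 instead of 1, by the addition of Sorcs2, with the likelihood ratio test, DESeq2, library size scaling, no filter, only the libraries compared and the replicate block. For PTX in processes, 535 genes became 949 (likelihood ratio), 1129 (no filter), 298 (only the libraries compared) and 1601 (replicate block). The interaction called 4 (likelihood ratio), 4 (DESeq2), 10 (no filter) and 15 (replicate block) genes instead of 0. The block changed the call of no member other than Sorcs2 in somata.

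Leaving out each library in turn gave 117 to 568 genes for PTX in somata and 97 to 478 in processes, and 1 to 2 and 0 to 1 members called, where a lone library was assumed to vary like the other groups. The lowest count in somata came without vehicle replicate 2 (117) and the lowest in processes without vehicle replicate 1 (97). Sorcs1 then ranged from -0.12 to 0.13 in somata, -0.0057 to 0.23 in processes and -0.021 to 0.23 for the interaction. Between compartments, Sorcs1 ranged from 0.25 to 0.49 in vehicle cultures and from 0.357 to 0.605 in PTX cultures. Sorcs3 had 69 to 164 reads per processes library, the lowest among the members tested.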
